A study of Mus musculus with 24 samples.

Results

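The genes described here, 10 of the 24346 listed for each library, mark stem and progenitor cells at the base of intestinal crypts: Lgr5, Smoc2, Tnfrsf19, Ascl2, Sox4, Cd44, Prom1, Ephb2, Ephb3 and Olfm4. They were taken by symbol, for what they are known to mark and not by a cutoff on their values. The choice was made with earlier results of these data known. Levels are in FPKM, a fragment count divided by transcript length and by the library's mapped fragments. A gene was tested where it reached an FPKM of 1 in at least 4 libraries. That held for 13799 genes and for 9 of the 10, all but Olfm4.

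The libraries came from colorectal tissue of mice given AOM/DSS. AOM, azoxymethane, is a carcinogen and DSS, dextran sulfate sodium, a polymer that injures the colon lining, and together they produce colon tumors. All 24 libraries carry this treatment, so none is from untreated tissue, and each was labelled tumor or normal. The labels give the genotype as c-MAF_KO or WT, and the titles split these into 1_hetero_ko, 8_hetero_ko, 8_homo_ko, wild_young and wild_old. In that order there were 3, 3, 3, 4 and 1 tumor libraries, and each had 2 normal libraries. By genotype label there were 9 KO-labelled and 5 WT-labelled tumors, and 6 and 4 normal libraries. Hetero and homo are the titles' words for zygosity, and young and old for age. The leading numbers 1 and 8, the cells in which the allele is altered, the ages and the animals behind the libraries are not given in the sources used here. P-values therefore measure the spread between these libraries, some of which may share an animal.

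Epcam, an adhesion protein of all gut epithelium, was between 418 and 1103 FPKM over all tumors and between 629 and 996 FPKM over normal tissue, so every library held epithelial RNA. Maf, the gene named in the genotype label, was not lower under the KO label: it was between 2.62 and 7.40 FPKM in KO-labelled tumors against 1.63 to 2.26 FPKM in wild_young tumors and 7.26 FPKM in the wild_old tumor. KO is used below as the label only. The wild_old tumor stood apart. Its 6 leukocyte markers summed to 365 FPKM, against 41.8 to 117 FPKM in the other tumors, its smooth muscle markers to 2852 FPKM and its epithelial markers to 4150 FPKM, the lowest of all libraries. In 8_hetero_ko tumor replicate 2 the Wnt target genes averaged 2.92 on the log2(FPKM + 1) scale and the fibroblast markers summed to 1132 FPKM, the highest of all libraries. Of that sum, 722 FPKM came from the fibroblast marker Dcn. Dcn and Lum were highest there of all libraries, while the markers Col1a1, Col1a2, Col3a1 and Pdgfra were higher in other tumors. Xist reached 1 FPKM in 6 libraries, all in the heterozygous groups. These were tumor replicate 3 of 1_hetero_ko and of 8_hetero_ko, and the normal libraries of both groups. With the KO label the comparison of tumor and normal tissue is thus partly mixed with Xist. Relative depth, estimated from values of very low genes, ranged from 0.697 to 1.87 of the median library.

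Crypts are pockets of the gut lining whose bottom holds dividing stem cells, and cells mature as they move up. Wnt signals from the surrounding tissue, strengthened by secreted R-spondins that bind Lgr receptors, keep the cells at the bottom in the stem cell state, and many crypt base genes are direct targets of the Wnt-responsive TCF/LEF transcription factors. Most intestinal tumors carry mutations that switch this pathway on. In mice, Olfm4 marks the stem cells of the small intestine rather than those of the colon.

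The TCF/LEF factors bind sequences around the letters TCAAAG, and Ascl2 and other helix-loop-helix factors bind E-boxes, written CANNTG. Start-site windows, from 250 bases before to 50 bases after an annotated start, were taken from RefSeq for GRCm38.p6, the same assembly as the mm10 build of the files. Windows were held for 8 of the 10 genes, 10 windows in all, with Prom1 and Tnfrsf19 holding 2 each. Lgr5 and Smoc2 had no window. The letters TCAAAG, read on both strands, occurred in 2 of the 10 windows, against 16% of all 32851 windows of this length. CANNTG, which reads the same on both strands and whose letters allow no overlap with a TCAAAG match, occurred in 8 of the 10, against 72.3%. The windows shown are those with TCAAAG and those of the transcription factors Ascl2 and Sox4, which hold none. Each is written 5′ to 3′ along the gene, with TCAAAG or its reverse complement in capitals.
Tnfrsf19 second window: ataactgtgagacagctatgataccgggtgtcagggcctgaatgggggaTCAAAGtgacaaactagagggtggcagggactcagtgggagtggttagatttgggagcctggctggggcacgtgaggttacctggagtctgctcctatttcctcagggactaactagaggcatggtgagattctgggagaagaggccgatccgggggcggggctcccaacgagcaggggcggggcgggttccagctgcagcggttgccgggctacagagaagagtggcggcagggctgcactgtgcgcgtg
Prom1 second window: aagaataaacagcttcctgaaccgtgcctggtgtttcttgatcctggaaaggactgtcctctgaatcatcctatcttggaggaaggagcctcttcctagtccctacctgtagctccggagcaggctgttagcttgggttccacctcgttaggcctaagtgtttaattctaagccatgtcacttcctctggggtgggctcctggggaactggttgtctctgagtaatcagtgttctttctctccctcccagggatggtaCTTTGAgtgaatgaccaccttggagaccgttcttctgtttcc
Ascl2: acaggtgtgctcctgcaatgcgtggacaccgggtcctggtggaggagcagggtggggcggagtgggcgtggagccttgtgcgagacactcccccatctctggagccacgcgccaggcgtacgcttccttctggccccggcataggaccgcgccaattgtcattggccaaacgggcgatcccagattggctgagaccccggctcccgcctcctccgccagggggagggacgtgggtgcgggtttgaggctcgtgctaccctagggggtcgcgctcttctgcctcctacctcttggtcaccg
Sox4: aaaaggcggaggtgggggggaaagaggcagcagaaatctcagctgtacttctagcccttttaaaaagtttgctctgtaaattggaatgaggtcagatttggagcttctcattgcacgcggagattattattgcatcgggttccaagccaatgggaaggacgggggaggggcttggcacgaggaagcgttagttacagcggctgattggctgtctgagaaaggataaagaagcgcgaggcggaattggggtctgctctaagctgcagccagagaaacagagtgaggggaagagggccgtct
These windows lie at chr14:61037938-61038237 for Tnfrsf19, chr5:44094719-44095018 for Prom1, chr7:142969215-142969514 for Ascl2 and chr13:28953650-28953949 for Sox4, all on the minus strand. In Tnfrsf19 the match begins at base -201 from the start on the gene's own strand. In Prom1 it lies on the opposite strand at base 9 after the start, counting the start as 1. A match is a run of letters and no evidence of binding, and the data hold no measure of binding.

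In normal tissue the 10 genes covered a wide range of levels. By median FPKM over the 10 normal libraries, Prom1 was highest at 108, followed by Ephb2 at 15.1, Cd44 at 14.7, Smoc2 at 11.3, Ephb3 at 7.60, Sox4 at 5.84, Ascl2 at 5.01, Tnfrsf19 at 1.26, Lgr5 at 0.996 and Olfm4 at 0.0373. Between neighbours the ranges overlapped except where Prom1 met Ephb2 and where Lgr5 met Olfm4. In the 14 tumors the medians were 97.3 for Prom1, 45.6 for Smoc2, 33.5 for Cd44, 24.8 for Sox4, 16.3 for Ephb2, 11.7 for Ascl2, 11.6 for Lgr5, 11.4 for Tnfrsf19, 9.97 for Ephb3 and 0.103 for Olfm4. Between neighbours in tumors the ranges overlapped except where Ephb3 met Olfm4. Smoc2, Cd44 and Sox4 thus stood above Ephb2 by median in tumors and Lgr5 beside Ascl2, while Prom1 and Olfm4 kept the ends of the order.

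**Figure D1:**
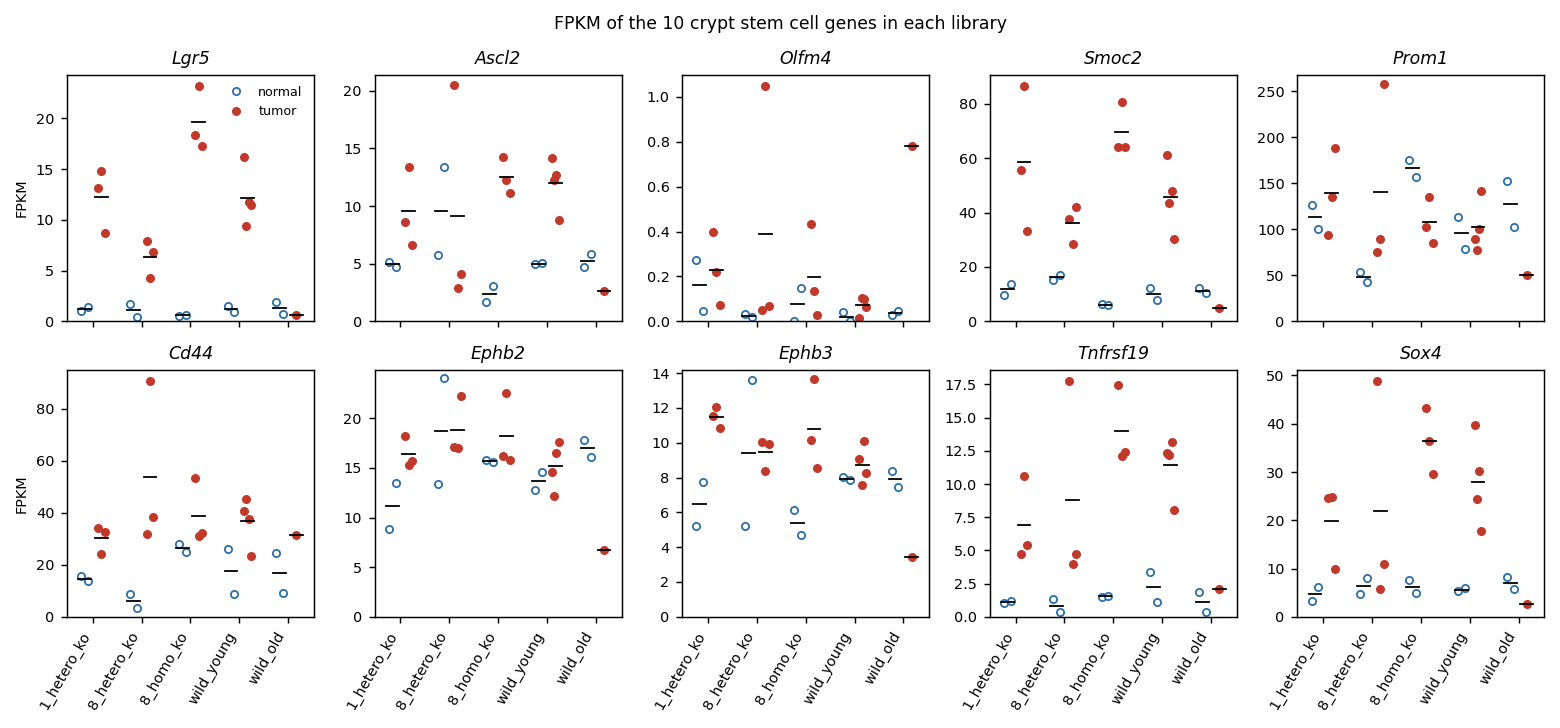
FPKM (linear axis from 0) of each of the 10 genes in every library, by title group; filled red points are tumors, open blue points normal libraries, and bars are group means. Lgr5 and Smoc2 tumors stand clear of normal tissue in all groups but wild_old, where the 1 tumor is at 0.609 FPKM for Lgr5 and 5.10 FPKM for Smoc2.

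Tumor and normal tissue were compared within each genotype label by limma on log2(FPKM + 1), a scale that understates the change of low genes, with Benjamini-Hochberg adjustment over all 13799 genes. With the KO label 6 of the 9 tested genes rose and 0 fell: Lgr5, Tnfrsf19, Smoc2, Sox4, Cd44 and Ephb3. Of all tested genes, 47.2% passed the threshold of 0.05 in this comparison, and 24.1% of all tested genes were higher in tumor. Under the WT label 3 of 9 rose, Lgr5, Tnfrsf19 and Smoc2, and 0 fell, while 30.4% of all tested genes passed and 15.5% were higher. The median log2 difference of the 9 genes was 1.47 with the KO label and 1.14 with the WT label, against 0.02 for all tested genes in each. In whole tissue, more cells that express a gene and more RNA per cell cannot be told apart.

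Lgr5 is the R-spondin receptor that defines crypt base stem cells, and the gene spans chr10:115450314-115587780 in the GRCm38.p6 annotation, used for all gene positions here. It measured 13.1, 14.8 and 8.71 FPKM in 1_hetero_ko tumors, 7.94, 4.27 and 6.89 in 8_hetero_ko, 18.3, 23.2 and 17.3 in 8_homo_ko and 16.2, 9.36, 11.8 and 11.5 in wild_young. The wild_old tumor had 0.609 FPKM. In normal tissue Lgr5 was at 1.02 and 1.45 FPKM in 1_hetero_ko, 1.68 and 0.474 in 8_hetero_ko, 0.563 and 0.631 in 8_homo_ko, 1.52 and 0.972 in wild_young and 1.92 and 0.743 in wild_old. All tumors but the wild_old tumor thus exceeded all 10 normal libraries, and that tumor lay within the normal range. KO-labelled tumors averaged 12.7 ± 6.23 FPKM (SD, n = 9) against 0.969 ± 0.502 FPKM (SD, n = 6) in normal tissue, a 13.1-fold ratio of means for a rise of 2.69 on the log2 scale (SE 0.394, limma adjusted p 1.67e-05). WT-labelled tumors averaged 9.89 ± 5.75 FPKM (SD, n = 5) against 1.29 ± 0.530 FPKM (SD, n = 4), a rise of 1.93 (SE 0.501, limma adjusted p 0.00638). Without the wild_old libraries that difference was 2.54 (limma adjusted p 0.000838).

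Smoc2, a secreted matricellular protein of crypt base cells (chr17:14279490-14404790), had much higher levels than Lgr5 and a like distribution over libraries. Tumors held 55.7, 86.6 and 33.3 FPKM in 1_hetero_ko, 37.8, 28.4 and 42.0 in 8_hetero_ko, 64.0, 80.8 and 63.9 in 8_homo_ko and 61.3, 43.4, 47.8 and 30.4 in wild_young. The wild_old tumor had 5.10 FPKM, below all normal libraries, which ran from 5.92 over a median of 11.3 to 17.1 FPKM. No other tumor reached down into the normal range. The log2 difference was 2.18 with the KO label (SE 0.379, limma adjusted p 0.000102) and 1.40 with the WT label (SE 0.482, limma adjusted p 0.0315). The WT-labelled call rested on few libraries: without the wild_old libraries the log2 difference was 2.07 (limma adjusted p 0.00297), and without wild_young tumor replicate 1 it was 1.14 and no longer passed (limma adjusted p 0.0916). It was also lost without wild_young tumor replicate 2 or 3, wild_young normal replicate 2, or either wild_old normal library, with adjusted p-values from 0.0536 to 0.0795.

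Tnfrsf19, also called Troy, a receptor of the TNF family and a Wnt target in crypt base cells (chr14:60963834-61046855), was at 4.73, 10.6 and 5.43 FPKM in 1_hetero_ko tumors and at 17.7, 3.99 and 4.74 FPKM in 8_hetero_ko tumors. It was at 17.5, 12.1 and 12.4 FPKM in 8_homo_ko, 12.3, 12.2, 13.1 and 8.06 in wild_young and 2.102 in the wild_old tumor. Normal libraries ran from 0.365 over a median of 1.26 to 3.41 FPKM, and the highest of them, wild_young normal replicate 1, was the only one above any tumor. The log2 difference was 2.19 with the KO label (SE 0.354, limma adjusted p 4.72e-05) and 1.93 with the WT label (SE 0.450, limma adjusted p 0.00304). Of the genes described here, Tnfrsf19 and Cd44 were the tested ones whose wild_old tumor exceeded both wild_old normal libraries.

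Sox4, a transcription factor of crypt progenitors (chr13:28948919-28953699), ranged more widely between tumors than between normal libraries. It measured 24.7, 24.9 and 9.90 FPKM in 1_hetero_ko, 48.8, 5.70 and 10.973 in 8_hetero_ko, 43.3, 36.5 and 29.7 in 8_homo_ko and 39.8, 24.5, 30.1 and 17.7 in wild_young tumors. The wild_old tumor had 2.75 FPKM, and normal libraries had 3.37 to 8.33 FPKM with a median of 5.84. Thus 2 tumors did not exceed normal tissue, the wild_old tumor and 8_hetero_ko tumor replicate 2. The log2 difference was 1.78 with the KO label (SE 0.447, limma adjusted p 0.00273). With the WT label it was 1.37 (SE 0.569, limma adjusted p 0.0708), and without the wild_old libraries 2.08 (limma adjusted p 0.0202).

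Ascl2, the transcription factor that switches on the stem cell program of the crypt base (chr7:142966822-142969264), did not pass with either label. Tumor values were 8.62, 13.4 and 6.66 FPKM in 1_hetero_ko, 20.5, 2.92 and 4.12 in 8_hetero_ko, 14.2, 12.2 and 11.2 in 8_homo_ko, 14.1, 12.3, 12.7 and 8.78 in wild_young and 2.66 in wild_old. Normal libraries ran from 1.71 over a median of 5.01 to 13.4 FPKM, and the highest, 8_hetero_ko normal replicate 2, exceeded 11 of the 14 tumors. The groups overlapped in 8_hetero_ko, while in 1_hetero_ko, 8_homo_ko and wild_young all tumors were above the normal libraries of the same group. The log2 difference was 0.81 (SE 0.370, limma adjusted p 0.0763) with the KO label and 0.70 (SE 0.471, limma adjusted p 0.259) with the WT label. With the KO label it passed without 8_hetero_ko normal replicate 2 (1.07, limma adjusted p 0.0213) and without 8_hetero_ko tumor replicate 2 (0.98, limma adjusted p 0.0257) or 3 (0.93, limma adjusted p 0.0425). Leaving out the highest normal library or either of the lowest KO-labelled tumors had to widen the difference. In all, it passed in 6 of 32 alternatives.

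Cd44, a cell surface receptor for hyaluronan that crypt base cells share with leukocytes and fibroblasts (chr2:102811141-102901669), was at 34.3, 24.1 and 32.7 FPKM in 1_hetero_ko tumors and at 32.0, 90.6 and 38.5 FPKM in 8_hetero_ko tumors. It was at 53.3, 31.2 and 32.3 FPKM in 8_homo_ko, 40.6, 45.2, 37.6 and 23.3 in wild_young and 31.5 in the wild_old tumor. Normal libraries ran from 3.22 over a median of 14.7 to 28.1 FPKM and overlapped with the lowest tumors. The log2 difference was 1.47 with the KO label (SE 0.352, limma adjusted p 0.0018) and 1.32 without the highest tumor (limma adjusted p 0.00312). With the WT label it was 1.14 (SE 0.448, limma adjusted p 0.057). Leukocyte and fibroblast markers were read beside Cd44. Of all tested genes 24.1% were higher in tumor with the KO label and 15.5% with the WT label. Of 6 leukocyte markers 3 rose with each label, and their sum ran from 41.8 to 365 FPKM in tumors and from 27.6 to 62.3 FPKM in normal tissue. Of 6 fibroblast markers 1 rose with the WT label, near the share of all tested genes, and 4 rose and 1 fell with the KO label. Their sums ran from 293 to 1132 FPKM in tumors and from 181 to 537 FPKM in normal tissue. None of these markers was at 0 in any library, and their part in the Cd44 difference was not tested.

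Prom1, a membrane protein of stem and progenitor cells that mature colon cells also carry (chr5:43993621-44102047), was the most abundant of the 10 and did not pass with either label. KO-labelled tumors ran from 75.01 over a median of 102 to 258 FPKM and KO-labelled normal libraries from 42.4 over 113 to 176 FPKM. WT-labelled tumors were at 89.8, 77.2, 100.3, 142 and 50.5 FPKM and WT-labelled normal libraries at 114, 78.3, 153 and 103 FPKM. The ranges overlapped with both labels. The log2 difference was 0.31 with the KO label (SE 0.310, 95% interval -0.33 to 0.95, limma adjusted p 0.427). It was -0.32 with the WT label (SE 0.394, 95% interval -1.14 to 0.50, limma adjusted p 0.559) and 0.08 without the wild_old libraries.

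Ephb2 and Ephb3 are receptors for ephrins that position cells along the crypt axis, with the highest levels at its base. Ephb2 lies at chr4:136647536-136836326 and Ephb3 at chr16:21204620-21223309. Ephb2 ran from 15.3 over a median of 17.0 to 22.5 FPKM in KO-labelled tumors and from 8.85 over 14.5 to 23.997 FPKM in KO-labelled normal tissue. WT-labelled tumors had 14.6, 12.2, 16.5, 17.6 and 6.78 FPKM, against 12.8, 14.6, 17.8 and 16.1 FPKM in normal tissue. Its log2 difference was 0.26 with the KO label (SE 0.176, limma adjusted p 0.236) and -0.22 with the WT label (SE 0.225, limma adjusted p 0.467), both within the spread. Ephb3 rose with the KO label by 0.58 on the log2 scale (SE 0.188, limma adjusted p 0.0143), with 10.6 ± 1.68 FPKM (SD, n = 9) in tumors against 7.10 ± 3.36 FPKM (SD, n = 6). The ranges still overlapped, because 8_hetero_ko normal replicate 2 had 13.6 FPKM. With the WT label Ephb3 was at 9.05, 7.56, 10.1, 8.23 and 3.43 FPKM in tumors and 8.01, 7.84, 8.40 and 7.46 FPKM in normal tissue, a log2 difference of -0.11 (SE 0.239, limma adjusted p 0.76). Without the wild_old libraries the WT-labelled values of Ephb2 and Ephb3 were 0.13 and 0.12.

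Olfm4, a secreted glycoprotein (chr14:80000302-80023141), was at 0.275 FPKM or less in all 10 normal libraries and is listed at 0 in 2 of them. Among tumors only 8_hetero_ko tumor replicate 2 exceeded 1 FPKM, at 1.05, and the wild_old tumor was next at 0.782 FPKM. In the other 12 tumors it was at 0.434 FPKM or less. The number of fragments behind these low values is unknown.

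**Figure D2:**
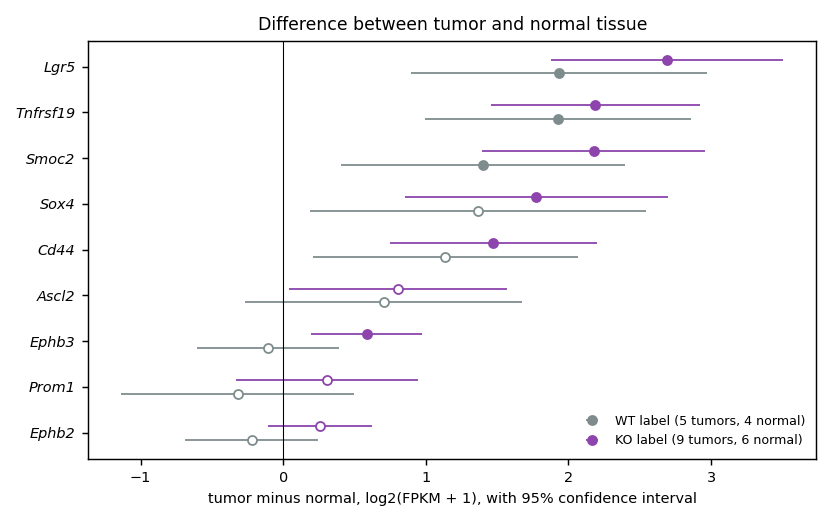
Difference between tumor and normal tissue on the log2(FPKM + 1) scale for the 9 tested genes, with 95% confidence intervals, for the WT label (grey) and the KO label (purple); filled points passed an adjusted p of 0.05. Lgr5 has the largest difference with the KO label, 2.69, and Ephb2 and Prom1 have intervals that span 0 with both labels.

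The interaction of label and tissue tested whether tumor and normal tissue differed unequally under the KO and WT labels. Of the 9 genes 0 passed by limma, against 0% of all tested genes, and 1 had an unadjusted p below 0.05. Counts by unadjusted p, here and below, are descriptions, because the share of all tested genes at that level is not given. The interaction was positive for all 9, with a median of 0.48 and a range of 0.10 to 0.78. Without the wild_old libraries the value of Lgr5 was 0.15 (limma adjusted p 0.977). The count of 6 genes with the KO label against 3 with the WT label thus came with no interaction past the threshold, and the KO label held 15 libraries against 9.

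**Figure D3:**
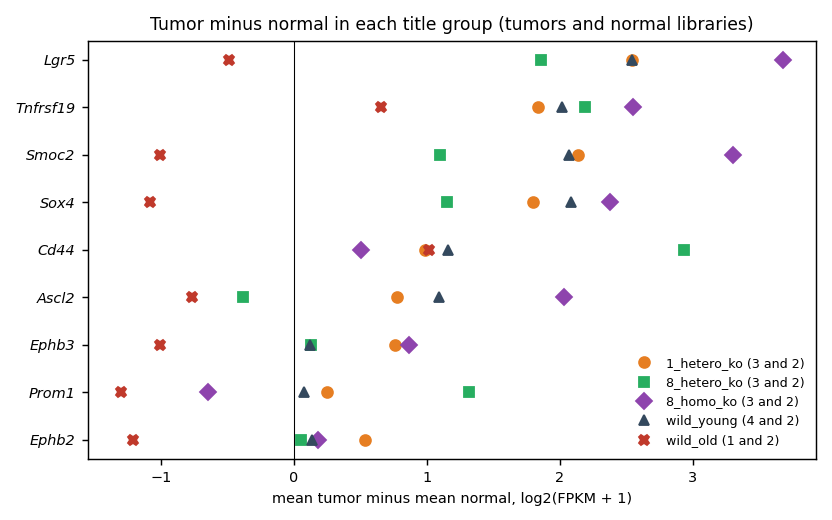
Mean tumor minus mean normal value on the log2(FPKM + 1) scale within each title group, with the numbers of tumor and normal libraries in the legend and no error bars. For Lgr5 the difference runs from -0.49 in wild_old to 3.68 in 8_homo_ko, and the wild_old point lies left of 0 for all genes shown except Tnfrsf19 and Cd44.

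The difference between tumor and normal tissue was of unequal size in the title groups. For Lgr5 it was 3.68 in 8_homo_ko, 2.54 in 1_hetero_ko, 2.54 in wild_young, 1.86 in 8_hetero_ko and -0.49 in wild_old. For Smoc2 the values in the same order were 3.299, 2.14, 2.07, 1.10 and -1.01. Cd44 had another order, with 2.93 in 8_hetero_ko and 0.50 in 8_homo_ko. Prom1 was 1.32 in 8_hetero_ko and -0.64 in 8_homo_ko, where all tumors were below both normal libraries. With 2 normal libraries in each group these are descriptions without a test.

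Other genes of the same biology were read from lists of known crypt genes, chosen with earlier results of these data known. Of the 12 crypt targets of Wnt signalling, Notum, Sp5, Lef1 and Prox1 had passed the filter on low values only through the tumors and are given as descriptions. The other 8 passed the filter in either tissue, and all 8 were called higher in tumor with both labels. Of all tested genes 24.1% were called higher with the KO label and 15.5% with the WT label. As a description, the 12 had a median log2 difference of 2.01 with the KO label and 1.93 with the WT label. The summed level of the 12 ran from 53.1 to 81.0 FPKM in normal tissue and from 75.9 FPKM, in the wild_old tumor, to 802 FPKM in tumors. Wif1, a secreted Wnt antagonist, rose by 5.47 with the KO label (SE 0.658, limma adjusted p 2.11e-06) and by 5.25 with the WT label (SE 0.837, limma adjusted p 0.000152). Among WT-labelled libraries the TCF/LEF factor Tcf7 rose by 1.71, and Lef1, of the same family, differed by 2.01. With the KO label the cell cycle regulator Ccnd1 rose by 1.38 and the growth regulator Myc by 1.12.

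The 13 further crypt base genes moved both ways. Msi1, Mex3a and Tert passed the filter only through the tumors and are given as descriptions. With the KO label 6 of the 13 were higher in tumor and 3 lower, with a median of 0.23, and with the WT label 4 were higher and 3 lower, with a median of -0.09. Of all tested genes 47.2% passed with the KO label and 30.4% with the WT label, and 24.1% and 15.5% were higher in tumor. The counts and medians are descriptions, because the higher genes include Mex3a and Tert with both labels. Mex3a, an RNA-binding protein of slowly cycling crypt cells, averaged 5.65 FPKM in tumors and 0.49 FPKM in normal tissue with the KO label, a log2 difference of 1.95, and differed by 1.65 with the WT label. Tert, the telomerase reverse transcriptase, differed by 0.76 and 0.51 with the KO and WT label. Bmi1, a Polycomb protein, rose by 0.44 and 0.56. On the same list 3 genes fell with both labels. Lrig1, an inhibitor of growth factor receptors, fell by 0.56 with the KO label (SE 0.151, limma adjusted p 0.00457) and by 0.99 with the WT label (SE 0.193, limma adjusted p 0.000755). Rgmb, a BMP co-receptor, fell by 0.63 and 0.95 and Aqp4, a water channel, by 1.76 and 1.96. With values scaled to the epithelial markers, Lrig1 and Rgmb no longer passed with either label (limma adjusted p from 0.242 to 0.725), nor Aqp4 with the WT label (0.0649). That scaling adds the same amount to each gene and put the median of all genes at 0.49 with the KO label and 0.65 with the WT label. All 3 genes still stood below it: Lrig1 at -0.09 and -0.37, Rgmb at -0.17 and -0.32, and Aqp4 with the WT label at -1.33.

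Among R-spondins and their receptors, 3 of 6 genes were tested. Lgr6, a close relative of Lgr5, was at 0.0412 FPKM or less in normal tissue and between 0.0634 and 6.48 FPKM in tumors, and passed the filter on low values only through the tumors, so its difference is given as a description: 1.36 with the KO label and 1.08 with the WT label. Lgr4, the broadly expressed relative, fell with the KO label by 0.56 (limma adjusted p 0.0212). The call was lost with epithelial scaling (-0.09, limma adjusted p 0.71), which put the median of all genes at 0.49. The median of the 3 was -0.30 with the KO label and -0.54 with the WT label.

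Of 6 tested Eph and ephrin genes, 2 rose and 3 fell with each label, with medians of -0.26 (KO) and -0.53 (WT), where 47.2% and 30.4% of all tested genes passed. The receptors Ephb6 and Epha2 rose, by 1.89 and 1.68 with the KO label and by 2.31 and 1.21 with the WT label. The ligands Efnb1, Efnb2 and Efna1 fell, by 0.72, 0.48 and 1.09 with the KO label and by 0.93, 0.81 and 0.93 with the WT label. With epithelial scaling only Efna1 with the KO label still passed among the ligands (-0.62, limma adjusted p 0.03). The other ligand values on that scale ran from -0.30 to -0.02. All were below the median of all genes there, 0.49 with the KO label and 0.65 with the WT label. The WT-labelled calls of Aqp4, Epha2 and Efna1 were lost in 8, 6 and 4 of 32 alternatives. Of 7 Notch genes, 4 rose and 1 fell with the KO label and 1 rose and 1 fell with the WT label, with medians of 0.48 and 0.10. Of all tested genes 47.2% passed with the KO label and 30.4% with the WT label, and the WT-labelled count of 2 of 7 is near that share and no result about Notch genes. The receptors Notch1 and Notch2 rose by 0.79 and 0.76 with the KO label, the ligand Dll4 by 0.53 and, with the WT label, by 0.62. Atoh1, the factor of the secretory lineage, fell by 1.43 and 1.82.

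Markers of mature and cycling cells were read beside these genes. Of 7 absorptive colonocyte markers 5 fell with each label, and their sum ran from 451 to 3798 FPKM in tumors and from 4361 to 19322 FPKM in normal tissue. Of 6 goblet cell markers 5 fell with the KO label and 3 with the WT label, and all 6 smooth muscle markers fell with both. Of 4 Paneth cell markers 3 rose with each label. Of 8 epithelial markers 3 fell with the KO label and 1 with the WT label, and of 8 proliferation markers 1 rose with the KO label and 7 with the WT label. Of all tested genes 47.2% passed with the KO label and 30.4% with the WT label, and 24.1% and 15.5% were higher in tumor. The epithelial count of 1 of 8 with the WT label and the proliferation count of 1 of 8 with the KO label are below these shares. They are no result about those markers. The part of cell content in the crypt gene values was not tested. An alternative scaling to the epithelial markers added 0.47 to the tumor difference of the median gene with the KO label and 0.63 with the WT label. It adds the same amount to each gene, so it changes the level that 0 stands for and not how the genes stand to each other. On that scale Lgr5 stood at 3.16 with the KO label and 2.56 with the WT label, where the median of all genes was 0.49 and 0.65.

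Between genotype labels, 0 of the 9 genes passed in tumors by limma, against 0.00725% of all tested genes, and 2 had an unadjusted p below 0.05. The 9 differences, KO minus WT, ran from 0.02 to 0.78 with a median of 0.42, against -0.01 for all tested genes. For Lgr5 it was 0.54 (SE 0.417, limma adjusted p 0.764), and the WT-labelled maximum of 16.2 FPKM was passed by 3 of the 9 KO-labelled tumors. Without the wild_old tumor it was -0.07 (limma adjusted p 0.96). Smoc2 differed by 0.78 (SE 0.401, limma adjusted p 0.63) and without the wild_old tumor by 0.20. In normal tissue 0 of 9 passed by limma, against 0% of all tested genes, and 0 had an unadjusted p below 0.05. The differences ran from -0.22 to 0.0038 with a median of -0.17.

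Each KO-labelled title group was then set against the 4 wild_young tumors. These comparisons share the wild_young libraries, and the last pair below shares its libraries with them. In 8_homo_ko, 0 of 9 genes passed by limma, against 0.457% of all tested genes, and 2 had an unadjusted p below 0.05. All 9 differences were positive, from 0.08 to 0.65, with a median of 0.26. Lgr5 was 0.65 higher (SE 0.253, limma adjusted p 0.366) and Smoc2 0.63 higher (SE 0.269, limma adjusted p 0.435), and for both all 3 tumors exceeded all 4 wild_young tumors. How many of all tested genes separate in this way was not counted, so the separation is a description.

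In 1_hetero_ko, 0 of 9 passed by limma, against 2.88% of all tested genes, and 0 had an unadjusted p below 0.05. The differences ran from -0.70 to 0.42 with a median of -0.0043. Tnfrsf19 was at the low end with -0.70 (SE 0.405, limma adjusted p 0.367) and Sox4 at -0.53 (SE 0.494, limma adjusted p 0.612). Lgr5 averaged 12.2 FPKM in both groups. Of the further crypt base genes, Lrig1 passed, at 23.8, 21.7 and 23.7 FPKM against 12.5, 12.003, 15.6 and 14.6 FPKM in wild_young, a log2 difference of 0.72 (SE 0.160, limma adjusted p 0.0286). It no longer passed with epithelial scaling, with a term for Xist, or without 1_hetero_ko tumor replicate 1 or 3 or without wild_young tumor replicate 1 or 2, while the difference itself stayed between 0.66 and 0.78 with any library left out and was 0.76 with epithelial scaling.

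In 8_hetero_ko, 0 of 9 passed by limma, against 0.00725% of all tested genes, and 1 had an unadjusted p below 0.05. All 3 tumors had less Lgr5 than any wild_young tumor, at 4.27 to 7.94 against 9.36 to 16.2 FPKM, a log2 difference of -0.85 (SE 0.253, limma adjusted p 0.664). That separation is a description too, with no count over all tested genes. The 3 tumors of this group split on other genes. Tumor replicate 1 held the highest Ascl2, Sox4 and Tnfrsf19 of all tumors, at 20.5, 48.8 and 17.7 FPKM, while replicates 2 and 3 were at 2.92 and 4.12 FPKM for Ascl2 and 5.70 and 10.973 FPKM for Sox4, below all wild_young tumors. The mean level of the Wnt targets, 2.92 in replicate 2, was the lowest among tumors outside wild_old. Without replicate 1 Ascl2 was lower than in wild_young by 1.52 on the log2 scale (SE 0.283, limma adjusted p 0.0132) and Sox4 by 1.64 (SE 0.377, limma adjusted p 0.0381). In that fit 245 of all tested genes passed, against 1 with the library. Replicate 1 was the highest tumor for both genes, so leaving it out had to widen the difference. Both passed in this 1 of 32 alternatives only, so these values are a description.

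Zygosity was addressed by 8_homo_ko against 8_hetero_ko tumors. By limma 0 of 9 genes passed, against 0.0507% of all tested genes, and 3 had an unadjusted p below 0.05. The count of 3 has no share of all tested genes beside it and is no result about these genes. The differences, homo minus hetero, ran from -0.34 to 1.51 with a median of 0.84. Lgr5 was nearest to the threshold. Its 3 8_homo_ko tumors, at 17.3 to 23.2 FPKM, all exceeded the 3 8_hetero_ko tumors, with a log2 difference of 1.51 (SE 0.270, limma adjusted p 0.0512). Over the alternatives its adjusted p ran from 0.0108 to 0.439, and it passed in 10 of 32 of them. Smoc2 was also higher in all 3, by 0.94 (SE 0.288, limma adjusted p 0.479). How many of all tested genes separate these 2 groups of 3 tumors was not counted, so both separations are descriptions. Without 8_hetero_ko tumor replicate 1, 4 genes passed: Lgr5 with 1.66 (limma adjusted p 0.0108), Sox4 with 2.05 (limma adjusted p 0.0146), Ascl2 with 1.59 (limma adjusted p 0.0134) and Tnfrsf19 with 1.47 (limma adjusted p 0.0456). In that fit 344 of all tested genes passed, against 7 with the library. The library left out was the highest 8_hetero_ko tumor for all 4 genes, so leaving it out had to widen the differences. Sox4, Ascl2 and Tnfrsf19 passed in this 1 of 32 alternatives only, so their values there are a description.

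Over the 14 tumors, Smoc2 followed Lgr5 most closely of the 9 other genes. Pearson's r on the log2(FPKM + 1) scale was 0.946 (permutation p 1e-05, the smallest the permutations can give, adjusted over 9 relations 9e-05) and Spearman's rho was 0.895 (permutation p 4e-05, adjusted 0.00036). Without the 2 tumors farthest from the median of Lgr5, the wild_old tumor and 8_hetero_ko tumor replicate 2, r was 0.794. Among the 9 KO-labelled tumors alone r was 0.907 (permutation p 0.0011, adjusted 0.0099), while rho was 0.833 and did not pass (permutation p 0.00876, adjusted 0.0788). Sox4 had an r of 0.855 (permutation p 0.00015, adjusted 0.000675) and a rho of 0.692 (permutation p 0.00749, adjusted 0.0337), and r fell to 0.560 without those 2 tumors. Among the 9 KO-labelled tumors Sox4 did not pass by r, at 0.742 (permutation p 0.0238, adjusted 0.107), or by rho, at 0.6 (permutation p 0.0979, adjusted 0.267).

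For 5 further genes the adjusted p of r was below 0.05 and the relation rested on the low tumors. For Ephb3, Ascl2, Tnfrsf19 and Ephb2 r was 0.823, 0.758, 0.752 and 0.684, and it fell to 0.345, 0.406, 0.402 and 0.0649 without the 2 farthest tumors. For Olfm4 r was -0.592 and turned to 0.336. The rho of these 5 did not pass, with adjusted permutation p-values from 0.089 to 0.729. Prom1, with an r of 0.368 (permutation p 0.195, adjusted 0.219), and Cd44, with -0.172 (permutation p 0.507, adjusted 0.507), did not pass by either measure. With the wild_old tumor left out, 2 relations passed by r, Smoc2 with 0.836 (permutation p 0.00029, adjusted 0.00261) and Sox4 with 0.735 (permutation p 0.00424, adjusted 0.0191). By rho Smoc2 passed there, with 0.868 (permutation p 0.00034, adjusted 0.00306), and Sox4 did not, with 0.615 (permutation p 0.0282, adjusted 0.127).

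**Figure D4:**
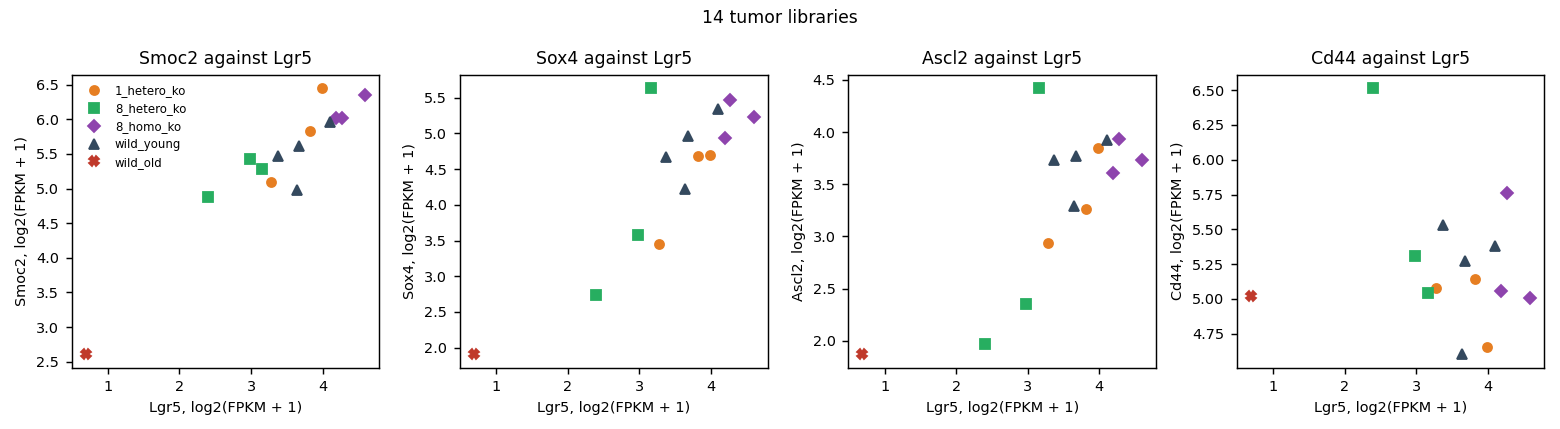
Smoc2, Sox4, Ascl2 and Cd44 against Lgr5 in the 14 tumor libraries, all as log2(FPKM + 1), with 1 symbol for each title group. Smoc2 climbs with Lgr5 (r 0.946) while Cd44 does not (r -0.172), and the wild_old tumor lies alone at the low end of Lgr5.

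Of the 13798 other tested genes, the 5 outside the set with the highest r with Lgr5 over the 14 tumors were Napepld (0.960), Tm7sf2 (0.939), Gata6 (0.937), Slc12a2 (0.936) and Evx1 (0.936). Smoc2 ranked 2 in that order and Sox4 70, while Cd44 ranked 8549. These ranks rested in part on the wild_old tumor: without it Smoc2 ranked 19, Sox4 143, Cd44 12404, Gata6 38 and Slc12a2 20, while Napepld, Tm7sf2 and Evx1 ranked 2, 4 and 6. Slc12a2, a sodium-potassium-chloride transporter, is itself on the list of further crypt base genes. Of the 5, Evx1, a homeobox factor, was also at most 1.36 FPKM in normal tissue, against a tumor median of 8.56 FPKM. Gata6, a gut transcription factor, was at 4.19 to 10.02 FPKM in tumors and 8.03 to 15.2 FPKM in normal tissue, so it followed Lgr5 among tumors without being higher in them. All 5 had their lowest tumor value in the wild_old library, as Lgr5 did. They were picked for following Lgr5 over these tumors, so this is no separate result. These are ranks over 14 libraries with shared tissue content, without a test.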

How the data were processed

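RNA from 14 tumor and 10 normal colorectal tissue libraries was sequenced. Total RNA was prepared with miRNeasy and libraries with the TruSeq Stranded mRNA kit, per the labels' protocols. The authors deposited 1 table per library with an FPKM value for each of 24346 gene symbols. The submitters' processing notes name TopHat2 2.1.1, Bowtie2 2.2.8, SAMtools 0.1.18, Cuffdiff 2.2.1 and the build mm10, without their settings. FPKM values carry no fragment totals, so absolute depth is unknown, and no interval or floor from counts is given. Between 12074 and 13290 genes reached 1 FPKM in a library. No libraries were identical.

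Values were tested as log2(FPKM + 1) with limma 3.58.1 in R 4.3.3 (empirical Bayes with a mean trend, two-sided), in genes that reached an FPKM of 1 in 4 or more libraries. One model held the 4 combinations of genotype label and tissue and another the 10 title groups by tissue, each fitted on all 24 libraries, with Benjamini-Hochberg adjustment over 13799 genes and a threshold of 0.05. Correlations used 100000 permutations in scipy 1.17.1, with numpy 2.4.6, pandas 2.3.3, Python 3.11.15 and matplotlib 3.10.9. The scripts were tested on simulated data with known changes. Alternatives were a pseudocount of 0.1, no filter, upper-quartile scaling, scaling to the epithelial markers, leaving out the wild_old libraries, a replicate block, a term for Xist, no mean trend, and leaving out each library.

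The 10 genes and the lists of other genes were chosen with earlier results of these data known. From each list the genes past the threshold, up to 3 by p in each direction, are named. The genes most like Lgr5 are the 5 outside the set with the highest Pearson's r over tumors.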

Additional observations from a re-analysis of the deposited data

Results flagged for a closer look

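Each of the 10 genes was screened in its groups of 4 or more libraries for a library far from the others, 50 groups in all, and 5 were found. By chance the cutoff marks about 1 in 20 groups where values are normally distributed and groups are separate. Here FPKM were used untransformed and some groups lie within others, so that rate need not hold. Among the 6 KO-labelled normal libraries, 8_hetero_ko normal replicate 2 stood apart for the transcription factor Ascl2, at 13.4 FPKM, and for the receptor Ephb3, at 13.6 FPKM. The same library had the highest summed epithelial markers of all libraries, 14822 FPKM. Among the 9 KO-labelled tumors, 8_hetero_ko tumor replicate 2 stood apart for the hyaluronan receptor Cd44, at 90.6 FPKM, and for Olfm4, at 1.05 FPKM. Among the 5 WT-labelled tumors, the wild_old tumor stood apart for Olfm4, at 0.782 FPKM.

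For 7 genes all tumors of some title groups were above their normal libraries while the wild_old tumor was below both of its own. The difference, tumor minus normal on the log2(FPKM + 1) scale in wild_old, was -0.49 for Lgr5 and -1.01 for Smoc2, both above normal tissue in the other 4 groups. It was -0.77 for Ascl2 and -1.08 for Sox4, both above in 1_hetero_ko, 8_homo_ko and wild_young. It was -1.21 for Ephb2 and -1.01 for Ephb3, both above in 1_hetero_ko and 8_homo_ko. For Prom1 it was -1.30 in wild_old, and in 8_homo_ko, where all tumors were also below both normal libraries, it was -0.64, while all tumors of 8_hetero_ko were above. These opposite directions were not tested, and wild_old rests on 1 tumor, which also had the lowest summed epithelial markers of all libraries. How many of all genes go the same way was not counted, so the 7 are no result about crypt genes.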

How the results depend on the processing

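Of 74 results for single genes, 40 kept their direction and side of the threshold under all 8 planned settings and with each of the 24 libraries left out, and 4 reversed under any. Scaling to the epithelial markers called 6302 genes between WT-labelled tumor and normal tissue in place of 4192 (5999 higher and 303 lower, in place of 2143 and 2049), with 6 of the 9 crypt genes. With the KO label it called 6658 in place of 6520 (5986 higher and 672 lower, in place of 3321 and 3199). It turned the WT-labelled differences of Prom1, Ephb2 and Ephb3 to 0.31, 0.40 and 0.52, all below the median of all genes on that scale, 0.65. It called 3 genes for 1_hetero_ko against wild_young (1 higher and 2 lower, in place of 225 and 172), 0 for 8_hetero_ko, 13 for 8_homo_ko against wild_young (0 higher and 13 lower, in place of 8 and 55) and 4 for 8_homo_ko against 8_hetero_ko. Upper-quartile scaling split the 1_hetero_ko calls into 279 higher and 114 lower. Without the wild_old libraries 2661 genes passed with the WT label, Prom1, Ephb2 and Ephb3 reversed to 0.077, 0.13 and 0.12, Lgr5 between labels in tumors to -0.067, and 2 relations with Lgr5 passed in place of 7. Between labels in tumors 1 gene passed, and 0 did with a pseudocount of 0.1, no filter, epithelial scaling, no wild_old libraries, a replicate block, an Xist term or no trend. Without the filter 2 genes passed for 8_hetero_ko against wild_young. With the Xist term 110 passed for 1_hetero_ko and 3 for 8_homo_ko against 8_hetero_ko. One of the 9 crypt genes, Lgr5, passed in the last comparison without the wild_old libraries, with the block or without the trend: 1 in place of 0.

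Replicate numbers did not pair the samples: the correlation of deviations exceeded 0.1 in 1 of 8 pairs (-0.159 to 0.355). A fit with the replicate block called 230 genes for 1_hetero_ko, 0 for 8_hetero_ko and 15 for 8_homo_ko against 8_hetero_ko, in place of 397, 1 and 7, and Smoc2 with the WT label had an adjusted p of 0.0598 by limma.

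With each library left out in turn, WT-labelled calls ran from 2975 to 5167 genes with 2 to 5 of the crypt genes, and 6 to 7 of the crypt genes passed with the KO label. The interaction gave 0 to 1 genes and the labels in tumors 0 to 2, with Lgr5 there from -0.067 to 0.79 and WT-labelled Ephb3 from -0.21 to 0.12, both reversed without the wild_old tumor. Counts ran from 15 to 596 for 1_hetero_ko, from 0 to 245 for 8_hetero_ko (crypt genes 0 to 2) and from 18 to 78 for 8_homo_ko against wild_young. They ran from 0 to 344 for 8_homo_ko against 8_hetero_ko (crypt genes 0 to 4), and relations with Lgr5 from 2 to 7. The highest counts, 245 and 344, came without 8_hetero_ko tumor replicate 1. Absolute depth is unknown, so a low value such as that of Olfm4 has no stated precision.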
